A study of Mus musculus with 18 samples.

Results

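Neutrophils are short-lived white blood cells that leave the bone marrow, circulate and enter inflamed tissue, and 8 genes that mark them in mice were followed here in inguinal fat of mice that carried a lung tumour graft. The members were taken by symbol from the deposited gene tables: S100a8, S100a9, Lcn2, Retnlg, Cxcr2, Csf3r, Trem1 and Clec4d, which are 8 of 21899 gene IDs. RNA was sequenced from the inguinal white fat, a depot under the skin, of male C57BL/6J mice. They were injected subcutaneously with cells of LLC, the Lewis lung carcinoma line raised from a mouse lung tumour, or with phosphate-buffered saline (PBS) alone. There were 5 LLC and 4 PBS libraries from day 21, which the labels name the cachexia stage, after the wasting that accompanies some tumours. There were again 5 LLC and 4 PBS libraries from day 7, named the pre-cachexia stage, and no age is given. Whole tissue was used, so more cells of a type and more RNA per cell cannot be told apart. Nothing in the labels says whether each numbered library is a separate mouse, so each p-value reflects only how far these samples scatter, part of which may be technical.

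S100a8 and S100a9 encode the 2 subunits of calprotectin, which fills the cytosol of neutrophils and is released as an alarm signal. Cxcr2 is the receptor through which CXC chemokines draw neutrophils out of marrow and blood, and Csf3r is the receptor for granulocyte colony-stimulating factor, which drives their production. Lcn2 is a granule protein that binds bacterial iron carriers and is also made by fat cells, macrophages and epithelia, and Retnlg is a resistin-like protein of mouse neutrophils and marrow. Trem1 amplifies inflammatory signalling in neutrophils and monocytes, and Clec4d is a lectin receptor of neutrophils and macrophages that signals through Fcer1g.

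The upstream DNA of 4 members is shown because they were highest in different tumour-bearing libraries: S100a9 and Retnlg in day 21 LLC library 4, Clec4d in library 1 and Cxcr2 in library 3. RefSeq promoters (GRCm38.p6, 250 bases before the start) matched all 8 members by symbol. Each line is written 5′ to 3′ on the gene's strand, without bases of annotated exons, and capitals mark motif letters on either strand.
S100a9 (chr3:90695722-90695971, minus strand): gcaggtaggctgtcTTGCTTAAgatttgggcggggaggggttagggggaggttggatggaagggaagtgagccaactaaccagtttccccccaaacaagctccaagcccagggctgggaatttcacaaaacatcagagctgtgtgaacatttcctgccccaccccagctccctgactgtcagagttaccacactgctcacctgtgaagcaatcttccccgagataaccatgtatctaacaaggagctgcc
Retnlg (chr16:48872358-48872607, plus strand): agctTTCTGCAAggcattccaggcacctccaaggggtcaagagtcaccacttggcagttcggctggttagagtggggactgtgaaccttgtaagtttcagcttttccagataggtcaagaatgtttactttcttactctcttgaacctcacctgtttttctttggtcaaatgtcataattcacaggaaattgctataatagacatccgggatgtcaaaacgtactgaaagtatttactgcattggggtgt
Clec4d (chr6:123261857-123262106, plus strand): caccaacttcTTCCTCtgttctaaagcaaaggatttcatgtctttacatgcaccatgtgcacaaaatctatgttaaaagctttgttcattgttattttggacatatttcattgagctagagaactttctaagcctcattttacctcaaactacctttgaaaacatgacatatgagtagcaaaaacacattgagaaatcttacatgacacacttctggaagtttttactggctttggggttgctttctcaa
Cxcr2 (chr1:74153744-74153988, plus strand): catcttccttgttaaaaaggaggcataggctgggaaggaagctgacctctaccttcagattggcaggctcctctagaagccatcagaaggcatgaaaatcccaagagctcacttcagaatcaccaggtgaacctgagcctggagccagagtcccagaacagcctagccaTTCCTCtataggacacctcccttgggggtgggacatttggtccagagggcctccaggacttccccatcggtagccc

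The motifs searched were TTGCNNAA for C/EBP factors, GAGGAA for PU.1 and TTCNNNGAA for STAT factors, on both strands of the 250 bases, where no matches overlapped in the members. The C/EBP letters stood in 3 of 8 members (S100a9, Retnlg and Lcn2), against 9.56% of 32851 mouse promoters of the same length. The PU.1 letters stood in 6 of 8 members, all but S100a9 and Retnlg, against 23.3% of promoters. The STAT letters stood in Trem1 alone, against 7.02%. These are letter matches in a short window and not measured sites. The whole window of Lcn2 lies inside its annotated gene, so both of its matches do. The Csf3r match, 86 bases before the start, also lies inside the annotated gene, which takes in the last 109 bases of that window.

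Libraries held between 14566155 and 18969387 counts, of which the 8 members together took 38 to 1835. Several libraries stood apart in markers of other cells, which were summed as TPM (a transcript level scaled for length and library total). In day 21 LLC library 3 the 8 B cell and lymph node genes summed to 1613 TPM, against 20.6 TPM or less in every other library. In day 21 LLC library 1 the 8 epithelial genes summed to 71.0 TPM, most of it Krt8 at 61.1 TPM, and the 10 macrophage genes to 3047 TPM, the highest of all libraries. The macrophage sum in day 21 PBS library 4 was 1978 TPM, against 160 to 322 TPM in PBS libraries 1 to 3 of that day. In day 7 PBS libraries this sum was 1329 to 2468 TPM, so PBS library 4 lay within that range and libraries 1 to 3 below it. The results at day 21 are therefore also given without LLC libraries 1 and 3 and PBS library 4, a choice made after seeing the data. Leaving out PBS library 4 keeps the PBS libraries low in macrophage genes. In day 7 LLC library 5 the epithelial genes summed to 21.6 TPM, against 7.08 TPM or less in the other day 7 libraries. Its macrophage sum was the lowest of that day, at 997 TPM, and its red cell sum the highest, at 8893 TPM. That library was kept in the main results of day 7. The 6 skeletal muscle genes summed to 5963 TPM in day 7 PBS library 3 and 1642 TPM in day 7 LLC library 3. At day 21 they summed to 4558 and 859 TPM in PBS libraries 1 and 2, and to 1775 and 513 TPM in LLC libraries 2 and 5. In every other library this sum was 84.4 TPM or less, and no library was set apart for it.

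**Figure D1:**
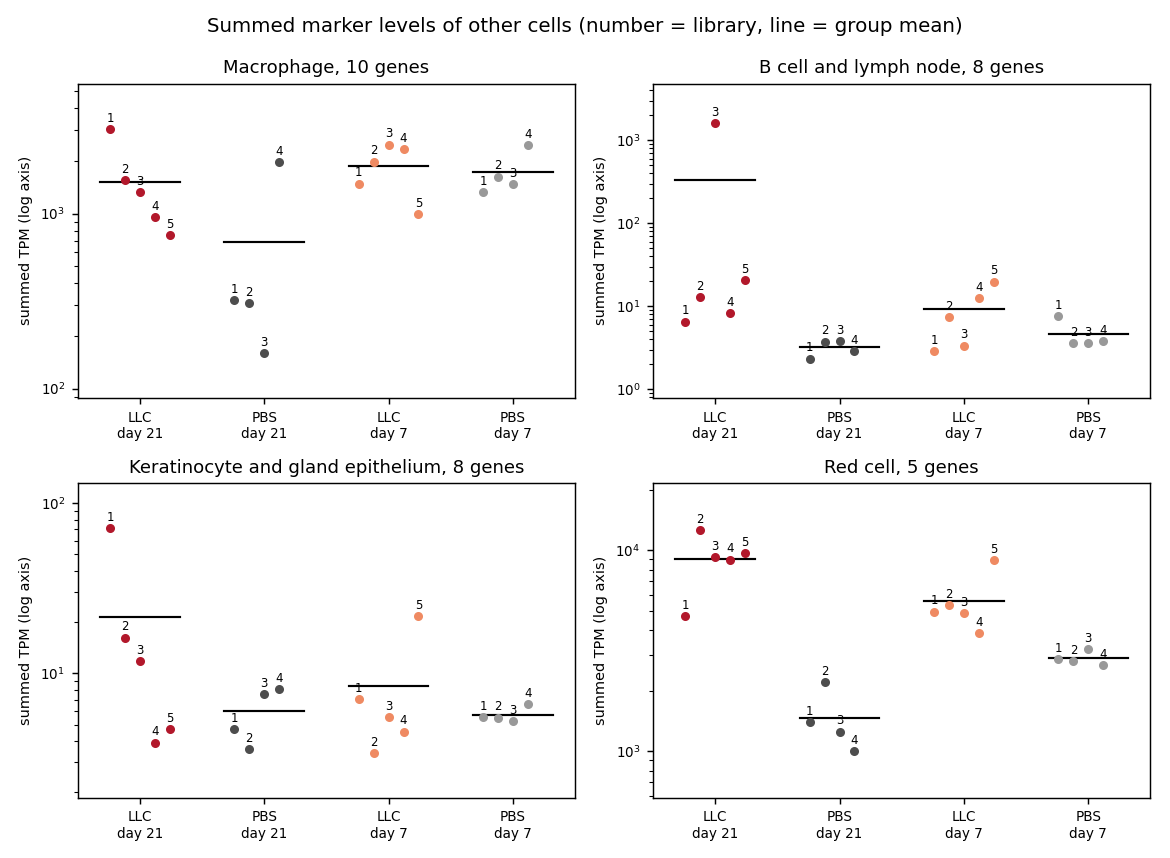
Summed TPM on a log axis of 4 marker lists (macrophage, B cell and lymph node, epithelium, red cell) in each of the 18 libraries. Points are libraries with their number and lines are group means. LLC library 3 of day 21 stands alone in B cell genes at 1613 TPM, and the red cell sum lies at 4673 TPM or more in every day 21 LLC library, against 2199 TPM or less in day 21 PBS.

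Calprotectin message was scarce in PBS fat and higher in most tumour-bearing libraries. Values for single libraries are in library order and in CPM, counts scaled to a common library total with TMM factors of all 18 libraries. At day 21 S100a9 had 1.23, 9.53, 4.56, 24.6 and 5.93 CPM in LLC fat, against 0.0602, 1.01, 0.0652 and 0.369 CPM in PBS fat. Every LLC library lay above every PBS library, with library 4 the highest and library 1 only just above the highest PBS value. S100a9 averaged 9.18 ± 9.14 CPM in LLC fat and 0.375 ± 0.445 CPM in PBS fat (SD, n = 5 and 4). The log2 fold change was 4.56 ± 1.05 (SE), with an adjusted p of 0.0751 by edgeR's quasi-likelihood test, which missed the threshold of 0.05.

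S100a8 was also highest in library 4 and lowest in library 1 of the LLC group at day 21, with 1.03, 5.44, 2.43, 18.05 and 2.07 CPM in LLC fat, against 0.1205, 0.881, 0.522 and 0.492 CPM in PBS fat. The groups were again separate, with a log2 fold change of 3.48 ± 0.94 (SE) and an adjusted p of 0.0933. Without LLC library 4 the log2 fold changes were 2.41 for S100a8 and 3.78 for S100a9, and without PBS library 2 that for S100a9 was 5.705. On the length-scaled measure, S100a8 and S100a9 together reached 114 TPM in LLC library 4, against 10.5 to 53.0 TPM in the other LLC libraries and 0.672 to 6.06 TPM in PBS libraries.

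At day 7 the tumour-bearing libraries divided within their own group. S100a9 had 0.186, 5.42, 0.702, 3.67 and 9.70 CPM in LLC fat, against 0.655, 0.0598, 0.185 and 0 CPM in PBS fat. S100a8 had 0.866, 4.14, 0.378, 2.39 and 6.26 CPM in LLC fat, against 1.05, 0.0598, 0.431 and 0.117 CPM in PBS fat. LLC libraries 2, 4 and 5 were high for both genes, while libraries 1 and 3 lay among or near the PBS libraries, so the groups overlapped. The log2 fold changes were 4.13 ± 1.14 for S100a9 and 2.77 ± 0.89 for S100a8 (SE), with adjusted p of 0.399 and 0.447 by edgeR. Without PBS library 1 they were 5.49 for S100a9 and 3.75 for S100a8, and without LLC library 5 that for S100a9 was 3.497. With same-numbered libraries of day 7 as a block, a fit that also left out LLC library 5, they were 3.08 for S100a9 and 2.05 for S100a8.

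**Figure D2:**
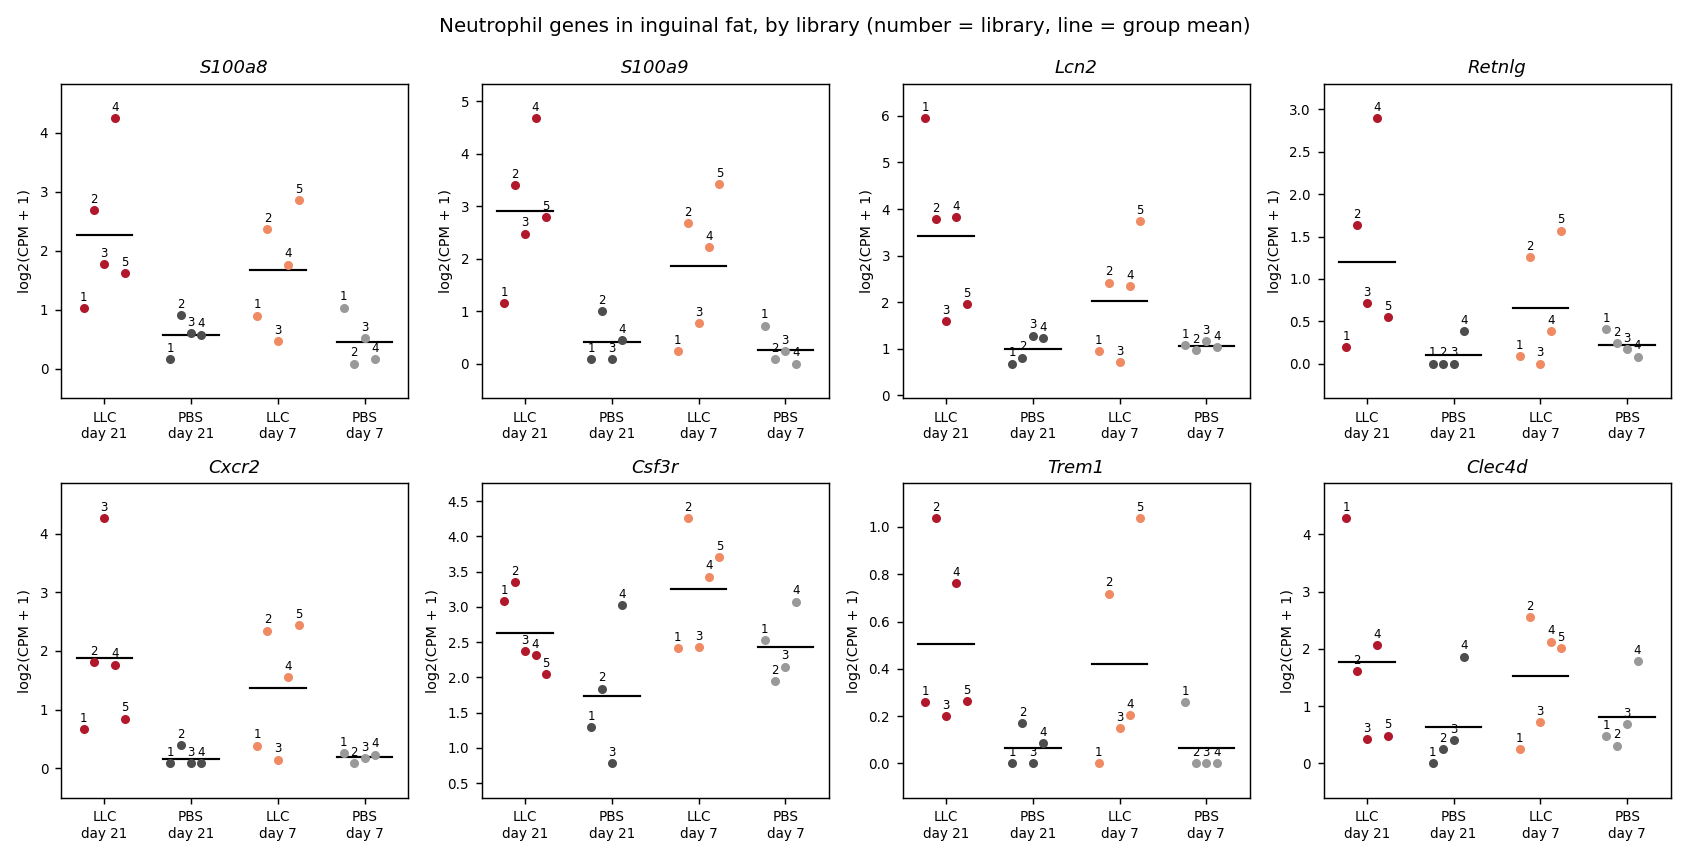
Level of each of the 8 neutrophil genes as log2(CPM + 1) in the LLC and PBS libraries of day 21 and day 7. Points are libraries with their number and lines are group means. LLC libraries 2, 4 and 5 of day 7 sit above libraries 1 and 3 for all 8 genes, and at day 21 different LLC libraries lead for S100a8 and S100a9 (4), Lcn2 and Clec4d (1) and Cxcr2 (3).

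Lcn2 reached the highest single level of the 8 genes on the length-scaled measure, 154 TPM in day 21 LLC library 1. At day 21 it had 61.0, 12.7, 2.03, 13.1 and 2.87 CPM in LLC fat, against 0.602, 0.755, 1.43 and 1.35 CPM in PBS fat. All 5 LLC libraries lay above the 4 PBS libraries, and library 1 stood 4.65 times above the next highest of all 18 libraries. The log2 fold change was 4.12 ± 1.04 (SE), with an adjusted p of 0.0809 by edgeR. Without LLC library 1, the one with the high macrophage and Krt8 levels, it was 2.90 with an adjusted p of 0.0989. In that library S100a8 and S100a9 were the lowest of the 5 LLC libraries, so the Lcn2 level there did not go with that of calprotectin. The part of other cells in it was not tested.

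Day 7 Lcn2 showed the same division of the LLC libraries as calprotectin. It had 0.928, 4.35, 0.648, 4.08 and 12.4 CPM in LLC fat, against 1.11, 0.957, 1.23 and 1.05 CPM in PBS fat. LLC libraries 1 and 3 lay below all 4 PBS libraries and the other 3 above them. The log2 fold change was 2.02 ± 0.75 (SE), with an adjusted p of 0.531. It was 1.21 without LLC library 5, the day 7 library with the highest epithelial sum. With the block of same-numbered libraries, a fit that left out LLC library 5 too, it was 0.91.

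Retnlg was low throughout and reached its highest level beside calprotectin. At day 21 it had 0.147, 2.11, 0.645, 6.46 and 0.467 CPM in LLC fat, against 0, 0, 0 and 0.307 CPM in PBS fat. The groups overlapped only because LLC library 1 lay below PBS library 4. At day 7 it had 0.0618, 1.40, 0, 0.306 and 1.97 CPM in LLC fat, against 0.327, 0.179, 0.123 and 0.0585 CPM in PBS fat. Only LLC libraries 2 and 5 exceeded all PBS libraries. A count of 0 allows up to 3 counts, or 0.147 to 0.211 CPM depending on the library, and covers counting error only, so the order of the lowest values has no weight. Retnlg did not pass the filter on low counts within either day.

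Of the receptors, Cxcr2 was near the limit of detection in PBS fat. At day 21 it had 0.590, 2.52, 18.3, 2.41 and 0.8002 CPM in LLC fat, against 0.0602, 0.315, 0.0652 and 0.0614 CPM in PBS fat. The groups were separate, with library 3 far above the others. The log2 fold change was 5.20 ± 1.28 (SE), with an adjusted p of 0.0786 by edgeR. Library 3 is the one whose 8 B cell and lymph node genes summed to 1613 TPM, against 6.52 to 20.6 TPM in the other LLC libraries of that day, and Cxcr2 without it had a log2 fold change of 3.59 and an adjusted p of 0.1198. Without PBS library 2 it was 6.13. Whether the high value came with cells other than neutrophils was not tested.

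At day 7 Cxcr2 had 0.309, 4.08, 0.108, 1.94 and 4.43 CPM in LLC fat, against 0.196, 0.0598, 0.123 and 0.175 CPM in PBS fat. LLC library 3 lay among the PBS libraries and library 1 just above them, while libraries 2, 4 and 5 were at least 1.94 CPM. Cxcr2 did not pass the filter at day 7 and was tested in the fit of all 18 libraries, where its log2 fold change was 3.90 ± 1.23 (SE) with an adjusted p of 1.00. The authors' deposited table lists Cxcr2 at day 7 with an FDR of 0.00321, so it passed there.

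Csf3r had the smallest log2 fold change of the members tested at each day. At day 21 it had 7.47, 9.24, 4.17, 3.99 and 3.13 CPM in LLC fat, against 1.45, 2.58, 0.717 and 7.13 CPM in PBS fat. The groups overlapped through PBS library 4, which was above 3 of the 5 LLC libraries and is the PBS library rich in macrophage genes. The log2 fold change was 0.89 ± 0.62 (SE), with an adjusted p of 0.398, and without PBS library 4 it was 1.80 with an adjusted p of 0.0643. At day 7 Csf3r had 4.33, 18.2, 4.37, 9.78 and 12.02 CPM in LLC fat, against 4.78, 2.87, 3.45 and 7.43 CPM in PBS fat. LLC libraries 2, 4 and 5 again exceeded all PBS libraries, and the log2 fold change was 1.07 ± 0.45 (SE), with an adjusted p of 0.560.

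Trem1 was low in every library, at 0.739 TPM or less. At day 21 it had 0.197, 1.05, 0.149, 0.697 and 0.200 CPM in LLC fat, against 0, 0.126, 0 and 0.0614 CPM in PBS fat. The groups were separate, although 3 of the LLC values rest on 3 or 4 counts. At day 7 it had 0, 0.645, 0.108, 0.153 and 1.05 CPM in LLC fat, against 0.196, 0, 0 and 0 CPM in PBS fat. Only LLC libraries 2 and 5 exceeded the highest PBS library, and Trem1 passed the filter at neither day.

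Clec4d at day 21 had 18.5, 2.05, 0.347, 3.17 and 0.400 CPM in LLC fat, against 0, 0.189, 0.326 and 2.64 CPM in PBS fat. LLC library 1 and PBS library 4 were the highest of their groups, and these are the libraries with the highest macrophage sums of their groups, 3047 and 1978 TPM. The groups overlapped, and the log2 fold change was 2.61 ± 1.44 (SE), with an adjusted p of 0.295. Without LLC library 1 Clec4d did not pass the filter, and without PBS library 4 its log2 fold change was 4.78. At day 7 Clec4d had 0.186, 4.89, 0.648, 3.36 and 3.02 CPM in LLC fat, against 0.393, 0.239, 0.616 and 2.46 CPM in PBS fat. LLC libraries 2, 4 and 5 exceeded all PBS libraries, and the log2 fold change was 1.37 ± 0.84 (SE), with an adjusted p of 0.708. Without PBS library 4 of that day it was 2.53.

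**Figure D3:**
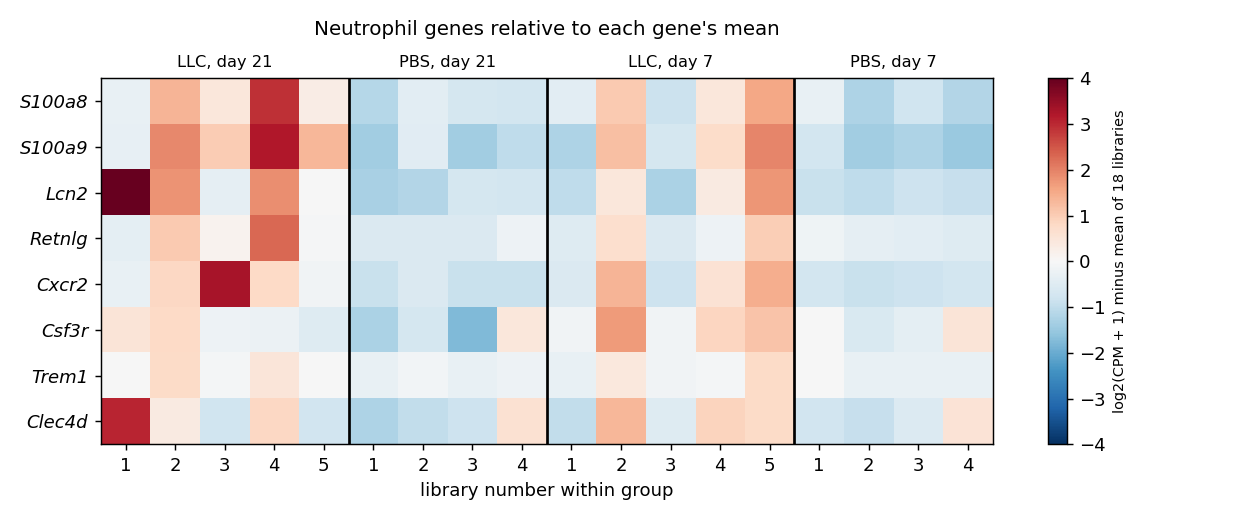
log2(CPM + 1) of each neutrophil gene minus its mean over the 18 libraries, with libraries in columns by group. Red is above the gene's mean and blue below it. In day 7 LLC fat libraries 2 and 5 are above the mean and libraries 1 and 3 below it for all 8 genes, and library 4 is above it for all but Retnlg and Trem1, while at day 21 the darkest cells lie in different LLC libraries for different genes.

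Over all genes, 12 of 13564 passed an adjusted p of 0.05 at day 21 by edgeR, which is 0.0885%, and none was a member. Of the 8 members, 6 passed the filter on low counts and 4 of these had an unadjusted p under 0.05, where 23.3% of all tested genes did. Cxcr2, with 1 to 5 counts in PBS libraries and 12 to 369 in LLC libraries, passed that filter through LLC fat. S100a8, S100a9 and Clec4d passed mainly through LLC fat too. They had 2 to 14, 1 to 16 and 0 to 43 counts in PBS libraries, against 21 to 285, 25 to 389 and 6 to 377 in LLC libraries. The share of members, here and in the counts of calls that follow, is therefore a description and not a test of them as a set. DESeq2, fitted to the same counts, called 4 members higher in LLC fat (S100a8, S100a9, Lcn2 and Cxcr2), with adjusted p between 7.99e-05 and 0.00167, where 11.4% of genes passed in either direction and 5.88% were called higher. The fit of all 18 libraries, in which all 8 members were tested, called 5 higher: the same 4 genes and Retnlg, whose log2 fold change was 4.53 ± 1.44 (SE) with an adjusted p of 0.0377. In that fit 10.5% of genes were called higher. Without LLC libraries 1 and 3 and PBS library 4, edgeR called S100a8, S100a9, Lcn2 and Cxcr2 higher, with adjusted p from 0.0257 to 0.0481, where 5.41% of genes were called higher. Without PBS library 4 alone edgeR called 9.3% of genes in either direction and 0 members. The authors' deposited table lists the 5 genes of the 18-library fit with an FDR between 2.36e-05 and 0.0184 at day 21.

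The groups were also compared by overlap alone, without a test. At day 21 every LLC library lay above every PBS library for 5 of the 8 members (S100a8, S100a9, Lcn2, Cxcr2 and Trem1), against 4.28% of the 17929 genes with a count at that day, or 5.23% of the genes tested. Without PBS library 4, which leaves the PBS libraries low in macrophage genes, this held for all 8 members and for 12% of genes with a count. Without LLC libraries 1 and 3 as well it held for all 8 and for 15.2%. At day 7 it held for 0 of 8 members, where 0.992% of genes with a count and 1.18% of genes tested were separate. For Trem1 the day 21 separation rests on 3 counts in LLC library 3 against 2 counts in PBS library 2, an order that has no weight.

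At day 7 edgeR called 1 of 13445 genes, which is 0.00744%, and no member. Of the 8 members, 5 passed the filter, and 4 of these had an unadjusted p under 0.05, against 8.51% of tested genes. S100a9, with 0 to 10 counts in PBS libraries and 3 to 138 in LLC libraries, passed mainly through LLC fat. So did S100a8 and Clec4d, with 1 to 16 and 4 to 42 counts in PBS libraries, against 7 to 89 and 3 to 91 in LLC libraries. This share too is a description. DESeq2 called 0 members as well, where 0.595% of genes passed, with the lowest adjusted p of 0.0737 for S100a8. No alternative listed for day 7, leaving out each library included, called a member.

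**Figure D4:**
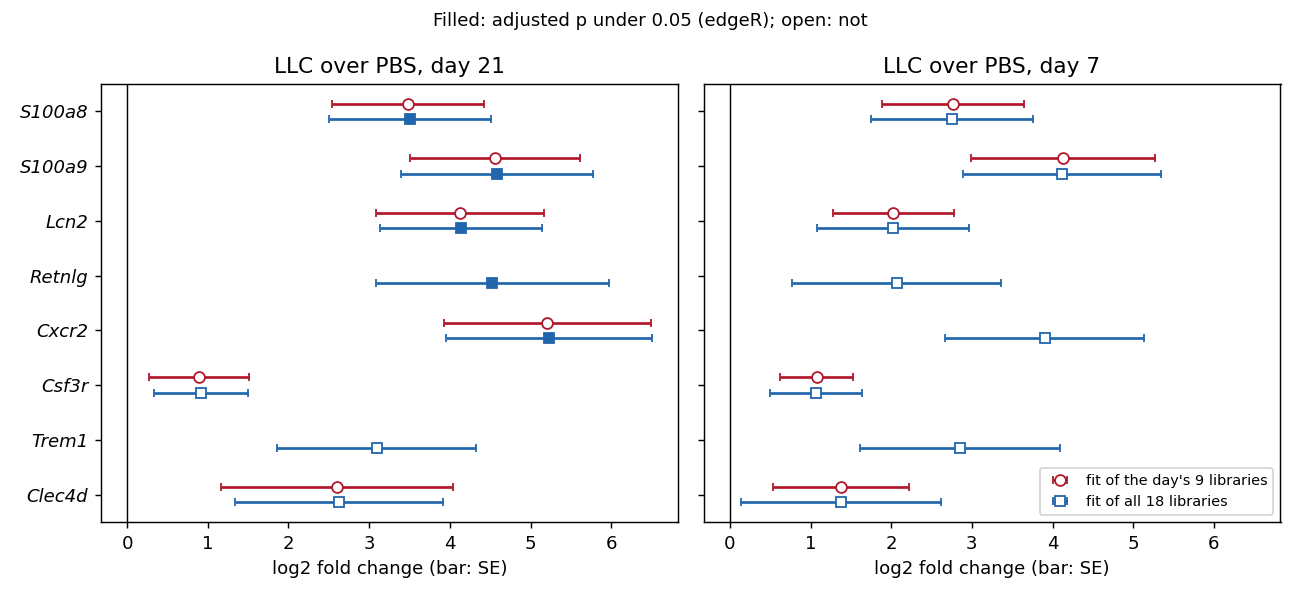
log2 fold change of LLC over PBS for the 8 neutrophil genes at day 21 and day 7, with bars of 1 SE. Circles come from the 9 libraries of the day, where members that failed the filter are missing, and squares from the fit of all 18 libraries. All points lie above 0, and the filled symbols, with an adjusted p under 0.05, are 5 squares at day 21.

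Between day 21 and day 7, no member passed the adjusted threshold in LLC fat, in PBS fat or for the difference of the tumour effect. Within LLC fat 7 of 8 members were higher at day 21, with log2 fold changes of 2.05 ± 0.82 for Lcn2, 1.40 ± 1.04 for Retnlg, 1.22 ± 0.90 for S100a9, 1.19 ± 0.90 for Cxcr2, 1.05 ± 0.81 for S100a8, 1.02 ± 1.10 for Clec4d and 0.24 ± 0.88 for Trem1, and of -0.80 ± 0.53 for Csf3r (SE). The adjusted p ran from 0.188 (Lcn2) to 0.918, where 1.77% of 13975 genes passed. Lcn2 was the 1 member with an unadjusted p under 0.05, against 18.6% of genes, and DESeq2 called 0 members, against 5.82% of genes. The sign for Cxcr2 turned without LLC library 3 of day 21, for Clec4d without library 1 and for S100a8 without library 4, and that for Trem1 turned without LLC library 1 or 3 of day 7.

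In PBS fat no member passed the threshold between the days. The log2 fold changes of day 21 over day 7 were 0.76 ± 1.35 for S100a9, 0.30 ± 1.07 for S100a8, 0.00 ± 1.08 for Trem1, -0.07 ± 1.01 for Lcn2, -0.14 ± 1.501 for Cxcr2, -0.23 ± 1.32 for Clec4d, -0.64 ± 0.60 for Csf3r and -1.06 ± 1.64 for Retnlg (SE). Neither edgeR nor DESeq2 called any of the 8, where they called 3.21% and 7.94% of genes. An unadjusted p under 0.05 was reached by 0 members and 20.4% of genes. Day 21 PBS libraries 1 to 3 were low in macrophage genes, and Csf3r was lower in them, at 0.717 to 2.58 CPM, than in PBS library 4 at 7.13 CPM.

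The tumour effect at day 21 minus that at day 7 was 2.46 ± 1.96 for Retnlg, 2.12 ± 1.30 for Lcn2, 1.32 ± 1.80 for Cxcr2, 1.25 ± 1.72 for Clec4d, 0.75 ± 1.36 for S100a8, 0.47 ± 1.73 for S100a9, 0.24 ± 2.05 for Trem1 and -0.16 ± 0.80 for Csf3r (log2, SE). The lowest adjusted p was 0.397, for Lcn2. In this contrast edgeR called 0.415% of genes and DESeq2 5.17%, with 0 members by either, and 18.2% of genes but 0 members had an unadjusted p under 0.05. The effect of the tumour on these genes was thus not shown to differ between the 2 days, and each SE is wide enough to leave a difference of severalfold undetected.

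The wider set of neutrophil genes was divided by stage of maturation. Of 5 genes of early granules, made by precursors in the marrow, Mpo, Ctsg and Ms4a3 were at 0.504 TPM or less in every library. Prtn3 and Elane, the other two, had 11.4 to 46.9 TPM and 0.347 to 4.82 TPM over the 18 libraries, in PBS fat as in LLC fat, and they lie beside each other and Cfd, the adipsin gene of fat cells, on chromosome 10 (GRCm38), where 2637 bases separate Elane from Cfd. Cfd itself had 15400 to 52729 TPM. Cfd was named after its values were seen, and its bearing on its neighbours was not tested. The log2 fold changes of LLC over PBS were 0.31 for Prtn3 and 0.88 for Elane at day 21, and 0.11 and -0.85 at day 7. Within LLC fat both were higher at day 21 than at day 7, Elane by 1.72, with an unadjusted p under 0.05 by edgeR. That level was reached by 18.6% of genes, and neither gene was called in these comparisons.

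Of 10 genes of late granules, 4 were tested at day 21 and 3 at day 7, and none was called. The median log2 fold change of those tested was 1.79 at day 21 and -0.06 at day 7, beside 0.02 and 0.00 over all genes. The medians rest on different genes, since Pglyrp1 was tested at day 21 alone. At day 7 the log2 fold changes were 2.66 for Chil3, -0.06 for Mmp9 and -0.45 for Wfdc21. Chil3, a chitinase-like protein of neutrophils and macrophages, had 4.44, 4.80, 1.79, 17.2 and 0.691 TPM in day 21 LLC fat, against 0.576, 0.919, 0.929 and 2.85 TPM in PBS fat. It was highest in library 4, as calprotectin was. At day 7 Chil3 had 1.07, 13.8, 1.46, 5.19 and 4.47 TPM in LLC fat, against 0.682, 0.782, 1.21 and 0.656 TPM in PBS fat, so libraries 2, 4 and 5 were again the high ones. Wfdc21 and Mmp9 were abundant in PBS fat too, at 31.8 to 115 TPM and 2.12 to 22.5 TPM over both days. At day 21 alone Mmp9 had 6.398 to 15.513 TPM in LLC fat, against 2.122 to 4.816 TPM in PBS fat, without overlap. Its log2 fold change was 1.47, with an adjusted p of 0.0526 by edgeR, which missed the threshold of 0.05. The Wfdc21 groups overlapped at that day, with a log2 fold change of 0.296. Camp and Ngp, granule genes of late precursors, stayed at 0.831 TPM or less in every library.

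Of 20 surface and cytosolic genes of mature neutrophils, 11 were tested at day 21 and 10 at day 7, and none was called at either. Their median log2 fold change was 1.65 at day 21 and 0.90 at day 7. Ly6g, the surface protein by which mouse neutrophils are usually stained, was listed above 0 in 3 of 5 LLC libraries at day 21, where it reached 1.12 TPM, in 1 of 5 at day 7, and in no PBS library. Il1r2, a decoy receptor for interleukin-1, Ifitm6 and Mxd1 are among the most abundant genes of this list. At day 21 Il1r2 had 39.3, 42.9, 53.1, 31.0 and 29.3 TPM in LLC fat, against 2.602, 4.13, 3.24 and 35.5 TPM in PBS fat, so the groups overlapped through PBS library 4 alone. The day 21 log2 fold changes were 1.65 for Il1r2, 1.74 for Ifitm6 and -0.21 for Mxd1, with adjusted p of 0.210, 0.138 and 0.589. At day 7 Il1r2 had 24.04 to 99.3 TPM in LLC fat, against 58.3 to 110 TPM in PBS fat, and the log2 fold changes were -0.27, 0.25 and 0.29. Within PBS fat, Il1r2 fell by 2.59 on the log2 scale at day 21 against day 7 (adjusted p = 0.0385), a call lost in 8 of 18 alternatives, and by 4.29 without day 21 PBS library 4. Mmp9 fell by 2.03 (adjusted p = 0.00149), which held in all 18 alternatives.

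The chemokines that bind Cxcr2 were high in the same 3 day 7 libraries as the members. Ppbp, which platelets also carry, had 1.09, 16.5, 1.66, 4.29 and 9.81 TPM in day 7 LLC fat, against 0.862, 0.555, 0.966 and 0.816 TPM in PBS fat. Cxcl1 had 0.863, 4.68, 2.12, 1.38 and 6.69 TPM in LLC fat, against 0.857, 0.757, 0.366 and 1.32 TPM in PBS fat. Cxcl5, named after its values were seen, had 0, 2.37, 0, 1.41 and 3.49 TPM in LLC fat and was listed at 0 in all 4 PBS libraries. Cxcl3, likewise, had 0.116, 1.94, 0, 1.49 and 2.46 TPM in LLC fat and was listed at 0 in PBS fat. Libraries 2, 4 and 5 were the 3 highest of day 7 for Ppbp, Cxcl2, Cxcl3 and Cxcl5, but not for Cxcl1, where library 3 exceeded library 4. The monocyte gene Ly6c2, named after its values were seen, was divided in the same way. It had 3.83, 51.2, 5.67, 37.7 and 14.1 TPM in LLC fat, against 4.56 to 7.89 TPM in PBS fat. The sum of the 7 monocyte genes was not, at 327, 464, 458, 496 and 211 TPM in LLC fat. None of the 7 was called at day 7, and 4 had an unadjusted p under 0.05 by edgeR, against 8.51% of tested genes.

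At day 21, when calprotectin and Cxcr2 were above PBS in every LLC library, these chemokines were not. Ppbp had 3.36, 0.769, 1.02, 2.89 and 1.86 TPM in LLC fat, against 0.921, 1.03, 1.60 and 0.910 TPM in PBS fat, and the groups overlapped. Cxcl3 was listed at 0 in all 9 libraries of that day, and Cxcl5 in all but LLC library 1, at 0.217 TPM. Of the 9 ligands and growth factors, 3 were tested at each day and none was called, with a median log2 fold change of 0.77 at day 21 and 1.97 at day 7. Cxcl12, a ligand of another receptor that holds neutrophils in the marrow, was the most abundant, at 108 to 330 TPM in day 21 LLC fat, against 69.0 to 137 TPM in PBS fat. Csf3, the ligand of Csf3r, was at 0.234 TPM or less everywhere, and Il17a was listed at 0 in all 18 libraries.

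**Figure D5:**
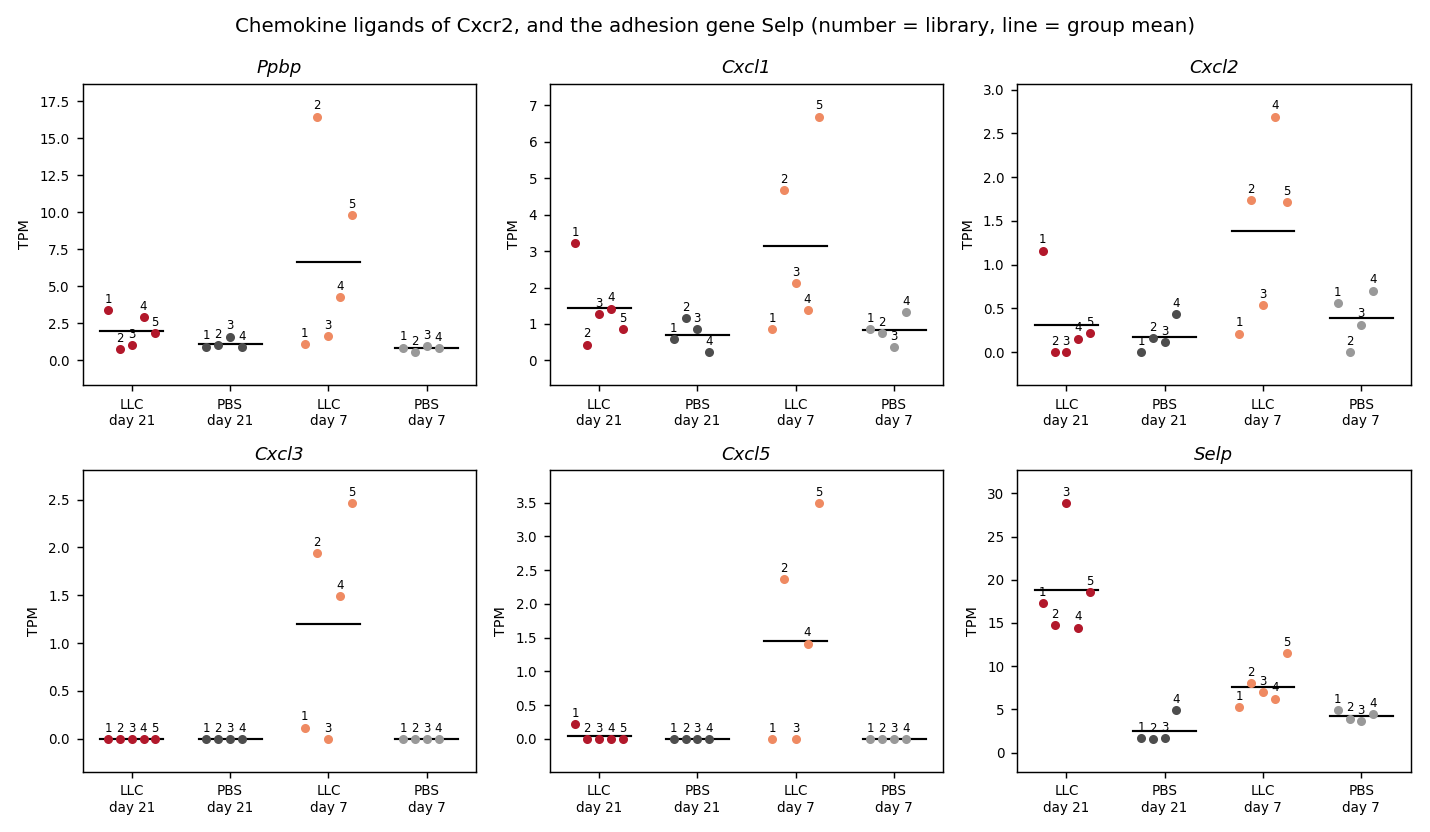
TPM of 5 chemokine genes whose products bind Cxcr2, and of the adhesion gene Selp, in each library. Points are libraries with their number and lines are group means. Ppbp, Cxcl3 and Cxcl5 are high in LLC libraries 2, 4 and 5 of day 7, whereas Selp is highest in the 5 LLC libraries of day 21, at 14.5 to 28.8 TPM.

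Selp, the endothelial and platelet selectin on which leukocytes first roll, rose at day 21. It had 17.3, 14.7, 28.8, 14.5 and 18.6 TPM in LLC fat, against 1.67, 1.59, 1.69 and 4.87 TPM in PBS fat, with a log2 fold change of 2.85 and an adjusted p of 0.0489 by edgeR. It was the 1 gene called of 8 endothelial and leukocyte adhesion genes, whose median log2 fold change was 1.44. Within LLC fat Selp was also higher at day 21 than at day 7 by 1.33 on the log2 scale (adjusted p = 0.0426). Both calls are close to the threshold, and over the alternatives the adjusted p was under 0.05 in 9 of 19 at day 21 and in 8 of 20 within LLC fat.

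Among 14 partners and adaptors of the members, 13 were tested at day 21 and 12 at day 7, and none was called at either day. The median log2 fold change was 0.65 at day 21 and 0.11 at day 7. Fcer1g, the adaptor of Clec4d, had 294, 125, 100, 77.5 and 52.6 TPM in day 21 LLC fat, against 31.7, 33.1, 20.1 and 156 TPM in PBS fat, and was highest in LLC library 1 and PBS library 4, as Clec4d was. Retn, the resistin gene that fat cells make, had 953 to 2021 TPM in day 21 LLC fat, against 1062 to 1404 TPM in PBS fat, far above Retnlg at 0.576 to 14.6 TPM in LLC fat. Stat3, which carries the Csf3r signal, rose by 0.43 on the log2 scale at day 21 against day 7 within LLC fat, with an adjusted p of 0.04998 that lay just under the threshold and was lost in 14 of 20 alternatives. Retnla, a resistin-like gene of fat macrophages, fell by 2.21 within PBS fat over the same days (adjusted p = 0.0131).

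Markers of other cells whose sums were separate between the day 21 groups were the 5 red cell genes, the 6 mast cell genes and the 8 B cell and lymph node genes. The last summed to 6.52 to 1613 TPM in LLC fat, against 2.34 to 3.78 TPM in PBS fat. The red cell sum was 4673 to 12558 TPM in LLC fat, against 1001 to 2199 TPM in PBS fat, and 1 gene of 5, Alas2, was called (log2 fold change 2.78, adjusted p = 0.0489), a call lost in 10 of 19 alternatives. The mast cell sum was 90.3 to 182 TPM in LLC fat, against 9.86 to 14.9 TPM in PBS fat, with Cpa3, Cma1, Tpsb2 and Mcpt4 called at log2 fold changes of 4.12 to 4.53. At day 7 the red cell sum was 3866 to 8893 TPM in LLC fat, against 2674 to 3223 TPM in PBS fat, also without overlap, but it did not divide LLC libraries 2, 4 and 5 from 1 and 3. Between days, the other marker calls were the B cell gene Pax5 within LLC fat, the same 4 mast cell genes, Ccr2, Cd163, Dcn, Pdgfra and Pi16 within PBS fat, all lower at day 21, and the 4 mast cell genes in the difference of the tumour effect. The Pax5 call (log2 fold change 6.13, adjusted p = 0.0498) rests on day 21 LLC library 3, at 52.0 TPM against 0.148 to 1.02 TPM in the other LLC libraries of that day. Without that library the Pax5 log2 fold change was 1.54 with an adjusted p of 0.330, and the call was lost in 15 of 19 alternatives. The calls of Ccr2, Cd163, Dcn, Pdgfra and Pi16 were lost in 3 to 8 of 18 alternatives. The part of blood or of these cells in the neutrophil gene levels was not tested.

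The genes whose pattern was most like the members were found by the Pearson correlation of log2(CPM + 1) over the 18 libraries with the mean of the 8 centred members, given as a description across libraries that include both tumour and PBS groups. The 10 non-member genes of 13975 with the highest values had coefficients from 0.90 to 0.83, and among them were Olr1, Mmp8, Hdc, Sdc4, Chil3, Cd300lf, Clec4e, Tmem252 and Slpi. Of these, 4 had been listed as neutrophil genes: the granule collagenase Mmp8, the histamine-forming enzyme Hdc, Chil3 and Clec4e, the lectin receptor that pairs with Clec4d. Hdc, which mast cells also make, had 5.09 to 13.1 CPM in day 21 LLC fat, against 0.843 to 2.03 CPM in PBS fat. Mmp8 had 0.397 to 3.61 CPM in day 21 LLC fat, against 0 to 0.126 CPM in PBS fat. Sdc4, a cell surface proteoglycan made by many cells, was the most abundant of the 10, at 32.7 to 73.9 CPM in day 21 LLC fat, against 13.2 to 36.0 CPM in PBS fat.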

How the data were processed

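Polyadenylated RNA of 18 inguinal fat libraries was measured. The submitters' processing notes name fastp 0.23.0, RSEM without a version, with mm10 and GRCm38 as builds. Aligner, annotation and comparison tool: not given in the sources used here. Deposited counts were treated as RSEM's expected counts, rounded by the authors, because 100% were whole while 176 values of 0 stood beside a positive TPM. The deposited TPM values carry the authors' scaling for length and library total. The authors' deposited log2 ratios, p-values and FDR come from the authors' own comparison. The protocols name no step that marks strand.

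The counts were fitted with edgeR 4.0.16 under R 4.3.3 (TMM scaling, filterByExpr, quasi-likelihood fits, two-sided tests, Benjamini-Hochberg adjustment over all tested genes at 0.05). The 9 libraries of a day gave LLC over PBS, and days were compared in 1 fit of all 18 libraries with 4 group means. The SE is approximate and follows from the log2 fold change and its F statistic. Alternatives were DESeq2 1.42.0 and its size factors, no filter or a mean of 1 CPM, limma 3.58.1 on log2(TPM + 1) and log2(TPM + 0.1), a robust fit, a replicate block, and each library left out. The fit was tested on simulated data.

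Deviations from the group means in same-numbered LLC and PBS libraries of day 7 had correlations of 0.207, 0.12, 0.531 and 0.19. Nothing in the labels pairs these libraries, and libraries of different number were not compared, so pairing was not shown. The value of 0.531 is for LLC and PBS libraries 3 of day 7. Their skeletal muscle genes summed to 1642 and 5963 TPM, against 57.8 TPM or less in the other libraries of that day. PBS libraries 4 of day 21 and day 7 had a correlation of 0.501. They held the highest macrophage sums of the PBS libraries of their days, at 1978 and 2468 TPM. The part of other cells in these correlations was not tested. The replicate block was run as an alternative only, on libraries 1 to 4 of each group, so it also left out LLC library 5 of each day. With it 0 members were called, as without it. The day 7 log2 fold change of Lcn2 was 0.91 with it, against 2.02 in the main fit. With no block but without LLC library 5 it was 1.21, so the block and the missing library were not told apart. The day 21 correlations were -0.273, 0.302, 0.092 and -0.158. Replicates of a group differed by more than sampling noise. Members and companion lists were chosen with earlier results of these data known. All 8 members are named in each comparison; list genes are named when past the threshold or among the 4 most abundant of their list, and others only as chosen after their values were seen. Coordinates are 1-based. Some genes that these rules would name are not reported here.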

Additional observations from a re-analysis of the deposited data

Results flagged for a closer look

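In 32 sets of a member and a group, 9 had 1 library far from the others by the gap between it and its nearest neighbour relative to the group's range. The cut-offs would flag about 1 set in 20 by chance if the values were normally distributed. CPM values here are skewed and many are at or near 0, so that rate does not apply to these sets. Where 3 libraries were at 0 and 1 was not, as for Retnlg and Trem1 below, the flag followed from the values of 0. In day 21 LLC fat these were S100a8 in library 4 (18.05 CPM), Cxcr2 in library 3 (18.3 CPM), and Lcn2 (61.0 CPM) and Clec4d (18.5 CPM) in library 1. In day 21 PBS fat they were Clec4d (2.64 CPM) and Retnlg (0.307 CPM) in library 4 and Cxcr2 in library 2 (0.315 CPM). In day 7 PBS fat they were Clec4d in library 4 (2.46 CPM) and Trem1 in library 1 (0.196 CPM). The last, like the Retnlg and Cxcr2 values in PBS fat, rests on 3 to 5 counts. The division of day 7 LLC fat into 3 high and 2 low libraries met no such criterion for any member. No member differed in tumour effect between the days by the test of that difference.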

How the results depend on the processing

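At day 21 the count of 0 members called became 4 with DESeq2, 5 with 1 fit of all 18 libraries, 1 (S100a9) with limma on either log2(TPM + 1) or log2(TPM + 0.1), which called 0.413% and 0.538% of genes higher and had a median over all genes of 0.13 and 0.15, against 0.02 by edgeR, and 4 without the 3 libraries that stood apart, an alternative chosen after seeing the data; the cause was not tested. It stayed at 0 with each library left out, and with the replicate block. The number of members with separate groups at day 21 was 5 to 8 with a library left out, where 4.85% to 12% of genes with a count were separate, and 8 without the same 3 libraries, where 15.2% were. At day 7 it was 0 to 1, beside 1.32% to 2.45%. Of the alternative values of single members, all 98 at day 7 kept sign and call; at day 21 102 did so and 15 kept their sign and passed the threshold. Signs turned between days and in neither comparison within a day. Within LLC fat the leave-one-out log2 ranges that crossed 0 were -0.030 to 1.57 for S100a8, -0.47 to 1.61 for Cxcr2, -0.084 to 0.46 for Trem1 and -0.72 to 1.44 for Clec4d. Without the 3 libraries Cxcr2 was -0.17 and Clec4d -0.36, and Trem1 was -0.0054 with limma on log2(TPM + 1). Within PBS fat they were -0.11 to 1.29 for S100a8, -0.39 to 2.13 for S100a9, -1.06 to 0.088 for Cxcr2, -0.26 to 0.12 for Lcn2, -0.94 to 2.89 for Trem1 and -2.41 to 0.92 for Clec4d. The replicate block gave -0.12 for S100a8 and -0.14 for S100a9. Without the 3 libraries Cxcr2 was 0.094 and Trem1 -0.12, and Trem1 was -0.0081 with no filter and -0.016 with DESeq2. For the difference of the tumour effect they were -0.32 to 1.27 for S100a8, -0.90 to 1.61 for S100a9, -0.35 to 2.26 for Cxcr2, -0.48 to 0.75 for Csf3r, -2.65 to 1.19 for Trem1 and -0.50 to 3.43 for Clec4d. Csf3r was 0.075 and 0.39 with limma on log2(TPM + 1) and log2(TPM + 0.1), 0.58 with the replicate block and 0.71 without the 3 libraries; Cxcr2 without them was -0.27, and Trem1 was -0.0072 with limma on log2(TPM + 1). In the labels, same-numbered libraries share only a number, at day 7 as at day 21. With under 3 to 5 counts behind many PBS values, fold changes of Trem1, Retnlg and Cxcr2 are limited by depth.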
